A study of Saccharomyces cerevisiae with 6 samples.

Results

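Cytochrome c oxidase is the last enzyme of the respiratory chain, and this section describes the mRNAs of its subunits that are encoded in the nucleus. The members were chosen by gene name among the nuclear mRNA rows of the deposited tables. Of 9 genes named, COX4, COX5A, COX5B, COX6, COX7, COX8, COX9, COX12 and COX13, 8 had a row of their own, out of 5667 listed features. COX5B had none.

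RNA came from mitochondria isolated from the haploid Saccharomyces cerevisiae strain CEN.PK113-7D, without genetic change between the groups, grown in shake flasks in synthetic medium until mid-exponential phase. The ethanol group was 3 cultures on ethanol-glycerol and the glucose group 3 cultures on glucose, each culture giving 1 library. All RNA was given an enzymatic poly(A) tail and was read directly on a Nanopore instrument. The values were CPM, the reads of a feature scaled to a fixed total of assigned reads. An mRNA of the nucleus is found here if it was attached to or came down with the mitochondria, so that more of an mRNA in the cell and more of it with the mitochondria cannot be told apart.

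The yeast enzyme has a catalytic core of Cox1, Cox2 and Cox3, which are encoded and translated inside the mitochondrion, and a shell of small proteins that are made in the cytosol and imported. Both sets must be joined in fixed proportion with heme and copper, by dedicated assembly factors. Subunit 5 exists as the isoforms Cox5a, made in the presence of oxygen and heme, and Cox5b, made when oxygen is low. Yeast represses respiratory genes during growth on glucose and needs respiration on ethanol and glycerol, a switch in which the Hap2/3/4/5 activator takes part.

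The libraries were uneven. Each had 267509 to 1093126 assigned reads. The row of the enolase gene ENO2 was very high and uneven between libraries. Nuclear mRNA other than ENO2 gave only 8284, 19087 and 63081 reads for ethanol replicates 1 to 3, compared with 97474 to 121147 for the glucose libraries. ENO2 alone was 70.0% to 87.5% of the nuclear mRNA CPM in ethanol and 21.1% to 34.4% in glucose. The source of these ENO2 reads was not tested. Levels are therefore given as shares of the nuclear mRNA CPM without ENO2, scaled as CPM is but to this total, and written in ppm. At this scale 1 read was worth 121 ppm in ethanol replicate 1 and at most 10.3 in a glucose library. The ethanol libraries also held more short mRNAs, with 15.8% to 18.6% of that CPM in features of up to 500 bases, against 8.15% to 8.84% in glucose. Depth, the ENO2 part of nuclear mRNA CPM and the share of short mRNAs thus all differed between the groups. From this design their part in a difference and that of the carbon source cannot be told apart. The carbon source labels were checked on marker genes: the lactate permease gene JEN1 had 2620 to 2695 ppm in the ethanol libraries and at most 8.25 ppm in glucose, and the glucose transporter gene HXT3 had 4647 to 5436 in glucose and 0, 210 and 0 in ethanol replicates 1 to 3.

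All 8 subunit mRNAs with a row took a larger share of nuclear mRNA in ethanol than in glucose. Summed, they made up 0.797%, 0.650% and 0.912% of it in the 3 ethanol libraries (replicates 1 to 3), compared with 0.134%, 0.134% and 0.108% in glucose. The sums rested on 66, 124 and 575.5 reads in ethanol and on 162.5, 130.5 and 116 in glucose. The mean share was 6.27 times as high in ethanol, and the groups did not overlap. For each of the 8 genes the 3 ethanol values lay above the 3 glucose values, which held for 26.4% of all 2008 nuclear mRNA features tested and for 54.3% of those of up to 500 bases.

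**Figure D1:**
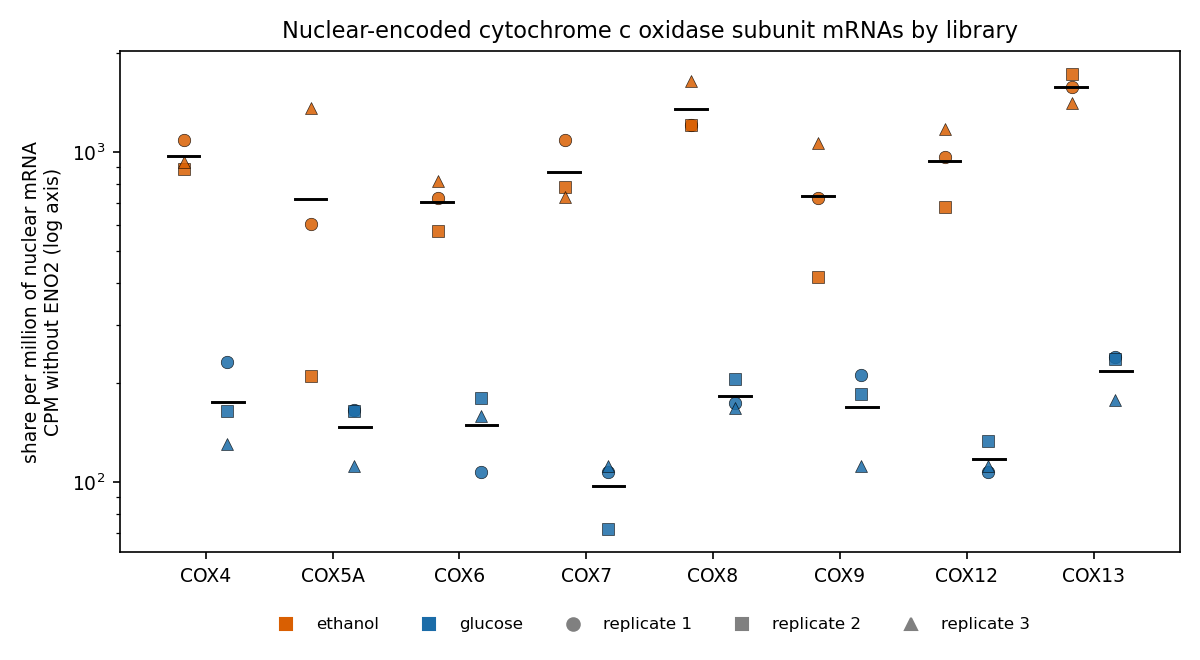
Share of each subunit mRNA in the nuclear mRNA CPM without ENO2 (ppm, log axis) in the 3 ethanol (orange) and 3 glucose (blue) libraries. Symbols mark the replicate and bars the group mean. Ethanol points lie above glucose points for every gene, most narrowly for COX5A, at 210 in ethanol replicate 2 against 165 in glucose replicate 1.

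The subunits are described gene by gene, beginning with COX4, COX5A and COX6. COX4 (chromosome 7, 168188 to 168655, minus strand of the CEN.PK113-7D assembly) encodes a zinc-binding subunit that faces the matrix. Its share was 1086.5, 891 and 935 ppm for ethanol replicates 1 to 3, as against 231, 164 and 130 ppm for glucose replicates 1 to 3. Relative to their mean, its ethanol values were the closest together after those of COX13. The group means of 971 ± 103 and 175 ± 51.2 (SD, n = 3) were 5.54-fold apart.

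COX5A (chromosome 14, 521437 to 521898, plus strand) encodes the aerobic isoform of subunit 5, which contacts Cox1. It had 604, 210 and 1355 ppm in ethanol and 165, 164 and 112 in glucose. Ethanol replicates 2 and 3 differed by more than counting error, from 4 reads with a 95% Wilson interval of 81.5 to 539 ppm, and 85.5 reads with one of 1104 to 1683. The value of ethanol replicate 2 had an interval that included all 3 glucose values.

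COX6 (chromosome 8, 206214 to 206660, plus strand) encodes a matrix-side subunit that joins together with Cox5a. It had 724, 576 and 816 ppm in ethanol and 107, 180 and 158 in glucose, 706 ± 121 against 148 ± 37.1 (SD, n = 3). The groups were well separated, by 4.75-fold in their means.

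The small membrane-spanning subunits come from the shortest genes. COX7 (chromosome 13, 755880 to 756062, minus strand) had 1086.5, 786 and 729 ppm in ethanol and 107, 71.8 and 112 in glucose. COX8 (chromosome 12, 869187 to 869423, minus strand) had 1207, 1205 and 1641 in ethanol and 173, 205 and 168 in glucose. COX9 (chromosome 4, 333921 to 334100, minus strand) had 724, 419 and 1062 in ethanol and 210.5, 185 and 112 in glucose. The ratio of group means was widest for COX7, 8.94-fold, and narrowest for COX9, 4.35-fold, although these are the 2 shortest genes of the set, at 183 and 180 bases. Within the ethanol group, COX5A, COX6, COX8, COX9 and COX12 each had their lowest share in replicate 2 and their highest in replicate 3.

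The subunits at the edge of the enzyme are the last. COX12 (chromosome 12, 204027 to 204278, minus strand), whose product lies on the intermembrane space side, had 966, 681 and 1173 ppm in ethanol and 107, 133 and 112 in glucose. COX13 (chromosome 7, 163298 to 163687, plus strand), whose product sits at the periphery, had 1569, 1729 and 1411 in ethanol and 239, 236 and 177 in glucose. COX13 had the highest share of the set in 5 of 6 libraries, the exception being ethanol replicate 3, where COX8 was highest. The COX13 means of 1570 ± 159 and 217 ± 35.0 ppm (SD, n = 3) were 7.22-fold apart, and those of COX12 were 940 ± 247 and 117.5 ± 13.9 ppm (SD, n = 3).

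Differences between the groups were tested with limma, a linear model fitted across all features, on log2 of the share plus 100 ppm, keeping features whose mean reached 100 ppm. This scale understates the change of low genes. With Benjamini-Hochberg adjustment at 0.05, 369 features were higher and 336 lower in ethanol, and all 8 subunit genes were among the higher. Those called higher were 18.4% of all features tested, and those called in either direction 35.1%. COX7 had a glucose mean of 97.0, just under the filter, and so passed it through its ethanol values. For the 8 genes the median log2 change was 2.10, against -0.0036 over all features tested.

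In log2 units, the ethanol over glucose change of COX13 was 2.40 ± 0.26 (SE, limma adjusted p = 0.000265). COX8 had 2.35 ± 0.27 (limma adjusted p = 0.000344). COX7 had 2.28 ± 0.28 (limma adjusted p = 0.000453). These 3 and COX12, with 2.23 ± 0.29 (limma adjusted p = 0.00061), lay within 1 standard error of each other. COX4 had 1.97 ± 0.27 (limma adjusted p = 0.000956) and COX6 had 1.70 ± 0.28 (limma adjusted p = 0.00208). COX9 had 1.58 ± 0.35 (limma adjusted p = 0.00827) and COX5A 1.47 ± 0.49 (limma adjusted p = 0.0423). The last call was the weakest: leaving out any library other than ethanol replicate 2 ended it, with limma adjusted p-values of 0.0875 without ethanol replicate 1, 0.0677 without ethanol replicate 3, and 0.101, 0.109 and 0.144 without glucose replicates 1, 2 and 3. Its log2 change was 0.93 without ethanol replicate 3, 2.04 without ethanol replicate 2 and between 1.37 and 1.53 without any of the other 4. COX9 lost its call without glucose replicate 3, at 1.41 (limma adjusted p = 0.0531).

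All 8 genes are short, between 180 and 468 bases, and short features as a class moved the same way. Among 208 tested features of up to 500 bases, 41.8% were called higher and 2.88% lower, with a median log2 change of 0.83. The median was 1.04 for 29 features of up to 250 bases and -0.34 for the 498 features over 2000 bases. When the trend of share with feature length was removed within each library, 5 of the 8 subunit genes were called higher, against 13.1% of all features, with 19.9% lower. COX13 was then at 1.503 ± 0.24 (SE, limma adjusted p = 0.00218) and COX4 at 1.24 ± 0.26 (SE, limma adjusted p = 0.0071). COX8, COX12 and COX6 also kept their calls, at 1.02, 0.95 and 0.92. Not called were COX7 at 0.72 (limma adjusted p = 0.0817), COX5A at 0.73 (limma adjusted p = 0.298) and COX9 at -0.0056 (limma adjusted p = 0.994). When the shares were instead taken within the features of up to 500 bases, an alternative added after seeing the data, COX13, COX12, COX8, COX7 and COX4 were called higher, against 8.33% of features higher and 8.11% lower, and COX6 (limma adjusted p = 0.0567), COX9 (limma adjusted p = 0.149) and COX5A (limma adjusted p = 0.326) were not. COX13, COX8, COX12 and COX4 were thus called under both. The part of length in the differences was not tested further.

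**Figure D2:**
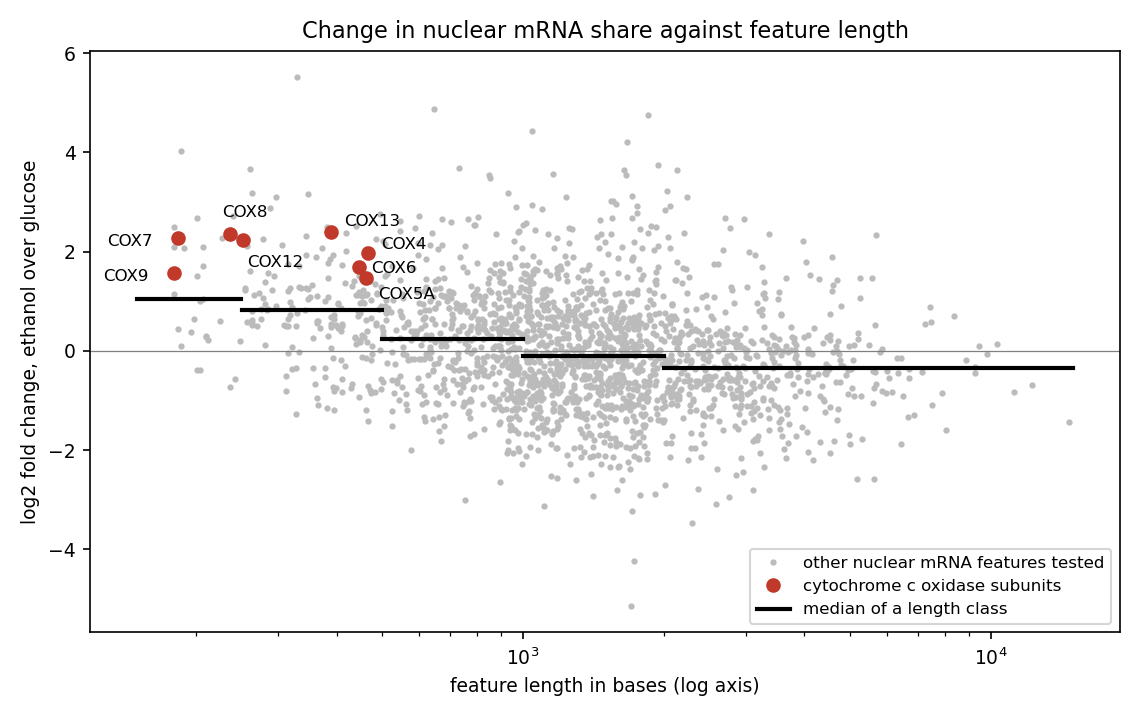
Log2 fold change in nuclear mRNA share, ethanol over glucose, against feature length in bases (log axis) for 2008 features (grey) and the 8 subunit genes (red). Black bars are medians of 5 length classes, from 1.04 at up to 250 bases to -0.34 above 2000 bases. All 8 subunit genes lie above the median of their class.

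On scales that count ENO2 in the total the direction stayed and most calls did not. On the deposited CPM, with a pseudocount of 1 and a mean of at least 10 CPM, all features had a median log2 change of -1.48. The 8 subunit genes were at 0.56 to 1.69 there, above that median, and none passed the limma threshold, nor had an unadjusted p under 0.05, while 2.10% of features were called higher. As a share of nuclear mRNA with ENO2 included the median was -1.34 and the 8 genes had 0.14 to 0.62, with COX7 alone called (limma adjusted p = 0.0235) against 4.82% of features higher, 78.2% lower and 83.0% in either direction. On the deposited CPM every subunit gene overlapped between the groups, as ethanol replicate 1 held 5.90 to 15.3 CPM of each, inside the glucose range for COX7 and below it for the other 7.

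**Figure D3:**
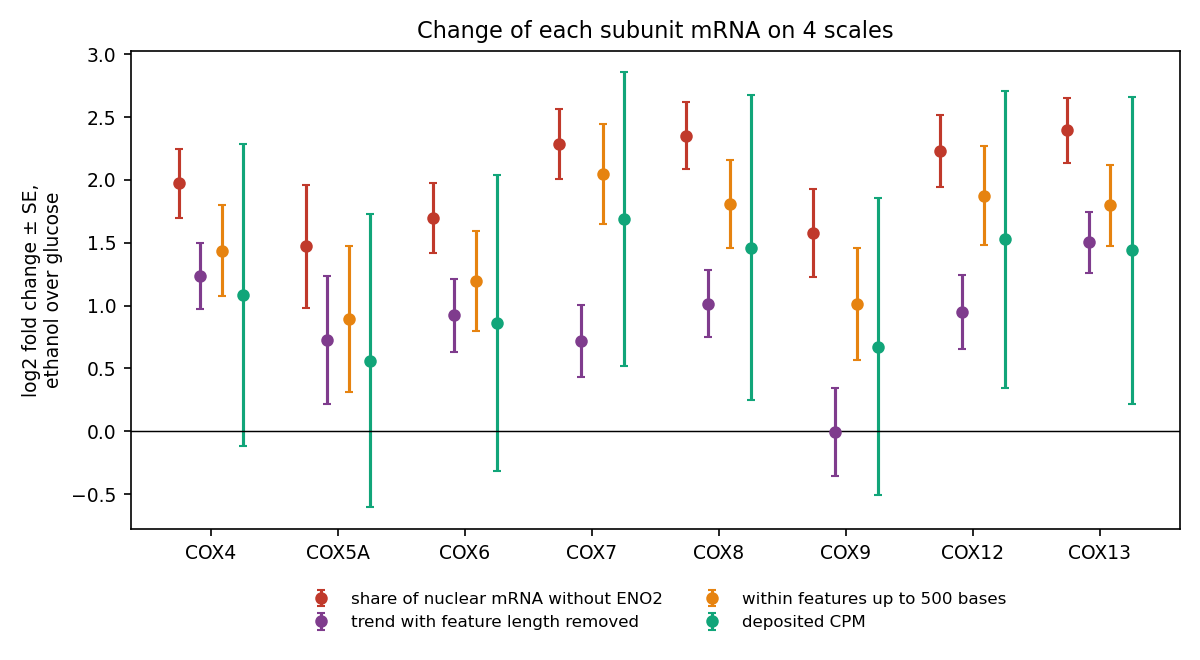
Log2 fold change of each subunit mRNA, ethanol over glucose, with its limma standard error on 4 scales: nuclear mRNA without ENO2 (red), the same with the trend in feature length removed (purple), within features of up to 500 bases (orange) and deposited CPM (green). Every estimate is above 0 except COX9 with the length trend removed, at -0.0056, and the standard errors are widest on the deposited CPM.

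The subunit mRNAs differed in level among themselves. By its share in ppm, the highest gene of a library was 1.58 to 3.29 times the lowest in glucose, and 2.60, 8.25 and 2.25 times the lowest in ethanol replicates 1 to 3. The 8.25-fold span was that between COX13 and COX5A. Per kilobase of feature length, the mean levels in ethanol ran from COX8, with 5700 ppm per kilobase, through COX7, COX9, COX13, COX12, COX4 and COX6 to COX5A with 1565. In glucose they ran from COX9, with 939, through COX8, COX13, COX7, COX12, COX4 and COX6 to COX5A with 318. The order of COX12, COX4, COX6 and COX5A was the same in both. A Nanopore read is 1 molecule whatever its length, so the order without the length correction is also given: COX13, COX8 and COX4 led in both groups, and COX7 ranked 5 of 8 in ethanol and 8 of 8 in glucose. Most neighbours in these orders differed by less than their spread over libraries. COX6 and COX5A, for example, had 706 ± 121 and 723 ± 582 ppm in ethanol and 148 ± 37.1 and 147 ± 30.5 in glucose (SD, n = 3).

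The isoforms of subunit 5 could not be compared as intended. In RefSeq's annotation of the reference strain (assembly R64), COX5B follows SDP1 and HOS4 on the same strand. The tables have no row for SDP1 or COX5B, and their row named HOS4 (chromosome 9, 144833 to 150039, plus strand) is 5207 bases long. The span from the start of SDP1 to the end of COX5B in R64 is also 5207 bases, while HOS4 alone is 3252 and COX5B 544 bases there. The row thus has the length of the 3 genes together. It held 1, 4 and 10 reads from ethanol replicates 1 to 3 and 20.5, 7 and 9 from the glucose replicates. COX5A had 5, 4 and 85.5 reads from the same ethanol libraries and 20, 16 and 12 from glucose. Reads of COX5B, if counted in that row, can be no more than these, so that in ethanol replicate 3 they were at most 10.5% of the reads of the row and COX5A together. In ethanol replicate 2 and glucose replicate 1 the reads of the long row equalled or passed those of COX5A, which leaves the balance of the isoforms there unknown. The long row took 163 ± 44.6 ppm in ethanol against 108 ± 53.1 ppm in glucose (SD, n = 3), a log2 change of 0.35 (limma adjusted p = 0.40).

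COX1, COX2 and COX3 of the mitochondrial DNA are the core of the enzyme. COX1, which the tables list as 1 feature with its introns (mitochondrial DNA, 14451 to 27368, plus strand), stood at 1362, 630 and 815 CPM for ethanol replicates 1 to 3, as against 2463, 2762 and 3181 CPM for glucose. COX2 (74502 to 75257, overlapping the feature Q0255) had 103, 46.7 and 99.0 CPM in ethanol and 43.5, 51.2 and 43.5 in glucose, and COX3 (79957 to 80766) had 125, 39.3 and 44.7 in ethanol and 55.3, 59.8 and 61.0 in glucose. COX1 was lower in each ethanol library, and the groups overlapped for COX2 and COX3. Within the summed CPM of the mitochondrial protein-coding features, the COX1 share was lower in ethanol by 17.2 percentage points and the COX2 and COX3 shares higher by 3.72 and 2.33, without overlap of the groups (two-sided exact permutation tests, p = 0.1 each, the smallest that 3 against 3 libraries allow). The listed COX1 length, 12918 bases, includes the introns and so is too long for spliced COX1 mRNA. With each feature divided by its listed length, the differences for COX1, COX2 and COX3 were -7.45, 4.02 and 1.06 percentage points. The exact permutation p was 0.1, 0.1 and 0.2 for these shares. As these shares sum to a fixed total, they are not separate changes.

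Set against the core, the nuclear subunit mRNAs varied between ethanol libraries far more than between glucose libraries. The summed CPM of the 8 nuclear genes over the summed CPM of COX1, COX2 and COX3 came to 0.0490, 0.648 and 0.894 for ethanol replicates 1 to 3, as against 0.0681, 0.0435 and 0.0323 for glucose. Ethanol replicate 1 thus lay inside the glucose range, and ethanol replicates 2 and 3 lay far above it. The same library had the least nuclear mRNA, 0.977% of its CPM without ENO2, and the most mitochondrial rRNA, 11.8% against 2.85% to 7.07% in the other 5, and the part of these in the ratio was not tested. Its summed subunit share of nuclear mRNA, 0.797%, lay between those of the other ethanol libraries. Against COX2 and COX3 alone, a choice added after seeing the data, the ratio was 0.342, 5.39 and 5.96 in ethanol and 1.77, 1.12 and 1.02 in glucose, so that ethanol replicate 1 was then below all glucose libraries.

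**Figure D4:**
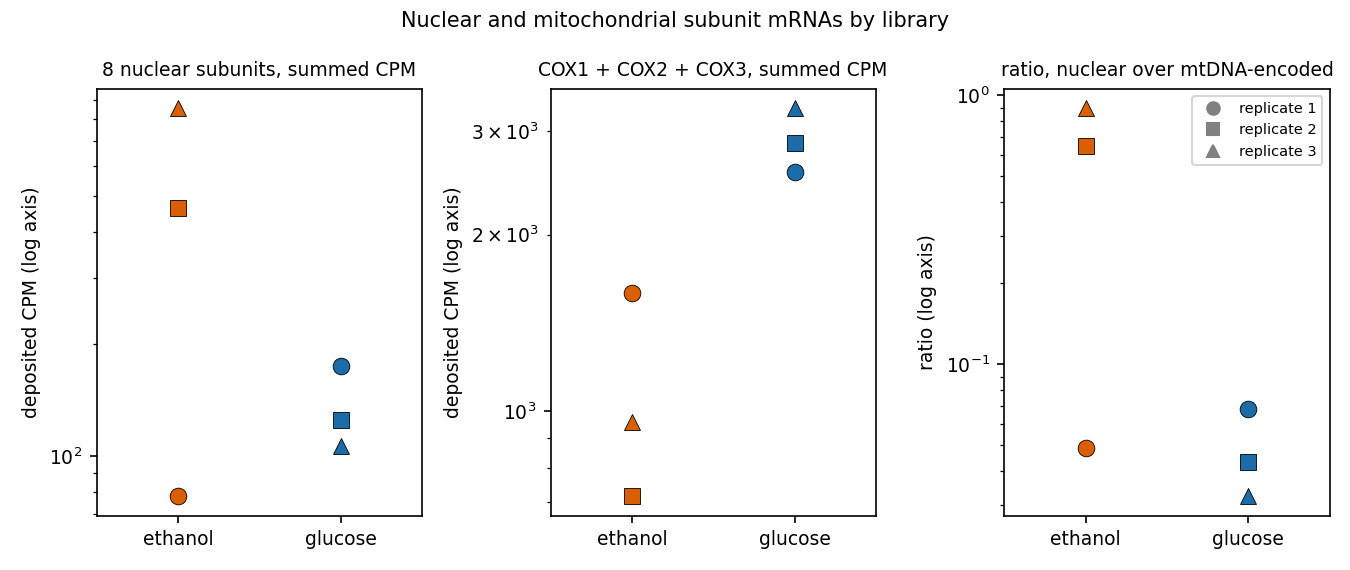
Summed deposited CPM of the 8 nuclear subunit genes, of COX1, COX2 and COX3, and the ratio of the sums, by library (log axes; ethanol orange, glucose blue, symbols mark replicates). Ethanol replicate 1 stands apart in each panel, with a ratio of 0.0490 inside the glucose range of 0.0323 to 0.0681.

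Other parts of the respiratory chain were read from lists of textbook genes. Of the 17 genes for ATP synthase and its inhibitors, the enzyme that makes ATP from the proton gradient, 15 were called higher and none lower, against 18.4% higher and 16.7% lower of all features, at a median log2 change of 1.67. They ran from ATP2, the catalytic beta subunit, at 0.87 (limma adjusted p = 0.0496) to ATP5, a stalk subunit, at 2.37 (limma adjusted p = 0.000401). Of the 9 nuclear genes of the bc1 complex, which passes electrons to cytochrome c, 6 were called higher, with a median of 1.26. Among these, QCR9, a small subunit, was highest at 2.21 (limma adjusted p = 0.000405) and QCR2, a core protein, lowest at 1.23 (limma adjusted p = 0.0494). With the length trend removed, 6 of 17 and 3 of 9 were called higher, against 13.1% of all features. QCR9 was among the latter, at 1.975. Its row is 960 bases long, and whether that is the length of its mRNA was not checked. ATP18, ATP19, TIM11, INH1 and QCR10, all called, had glucose means of 53.8 to 97.2 ppm and so passed the filter through their ethanol values. The bc1 count was 3 without glucose replicate 2 and 2 without glucose replicate 3, where QCR7 and QCR9 were left. The ATP synthase count was 10 without either of these libraries. On the deposited CPM no gene of either list was called or had an unadjusted limma p under 0.05. The difference between the complexes was not tested.

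The factors that build cytochrome c oxidase had few reads. Of 36 assembly and translation factor genes on the list, 32 had a row and 8 passed the filter, and none of these was called by limma, nor had an unadjusted p under 0.05, at a median log2 fold change of 0.24. By voom, a form of limma weighted by read number and run on reads recovered from the CPM, COX14, COX20 and COA3, which act in making and stabilising Cox1 and Cox2, were called higher, at 1.56, 1.57 and 1.71 (voom adjusted p = 0.0339, 0.041 and 0.0181), where 22.1% of all features were called higher and 38.0% in either direction. With the length trend removed these 3 were at -1.22, 0.16 and -0.69, none called. Their glucose means of 75.3, 62.9 and 99.2 ppm were under the filter, which they passed through ethanol means of 135, 245 and 228 ppm. With the length trend removed, AIM38, also known as RCF2 and involved in respiratory supercomplexes, was called lower at -1.13 (limma adjusted p = 0.0484). Leaving out ethanol replicate 1 gave a limma call for COX20, at 1.37 (adjusted p = 0.0359). Leaving out ethanol replicate 3 gave limma calls for COX19, higher at 1.24 (adjusted p = 0.0301), and for COX15, lower at -0.99 (adjusted p = 0.0149). COX15 is needed to make heme A and is on both the assembly and the heme list. COX19 had 1 to 3 reads in an ethanol library and a glucose mean of 30.7 ppm, so it passed the filter through few ethanol reads. COX15 had 1 to 27 ethanol reads, at 52.4 to 428 ppm, against 256 to 284 ppm in glucose. Its highest ethanol value was that of replicate 3, the library left out, so this call also rests on few ethanol reads. COX17, the copper chaperone, had 33 reads in ethanol replicate 3 and none in ethanol replicates 1 and 2. Of 10 heme synthesis genes, 6 were tested and none called by limma or voom, nor had an unadjusted p under 0.05 in either fit, the lowest being HEM13 at -0.86 ± 0.39 (SE, limma adjusted p = 0.107). Without ethanol replicate 3, HEM13 was called lower beside COX15, at -1.08 (limma adjusted p = 0.0395). HEM13 had 0 to 6 ethanol reads, the 6 in replicate 3, and 113 to 281 ppm in glucose. In ethanol replicate 1, 3 reads were worth 362 ppm, above all these glucose values. In ethanol replicate 2 they were worth 157 ppm, inside the glucose range. The call thus rests on few ethanol reads.

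**Figure D5:**
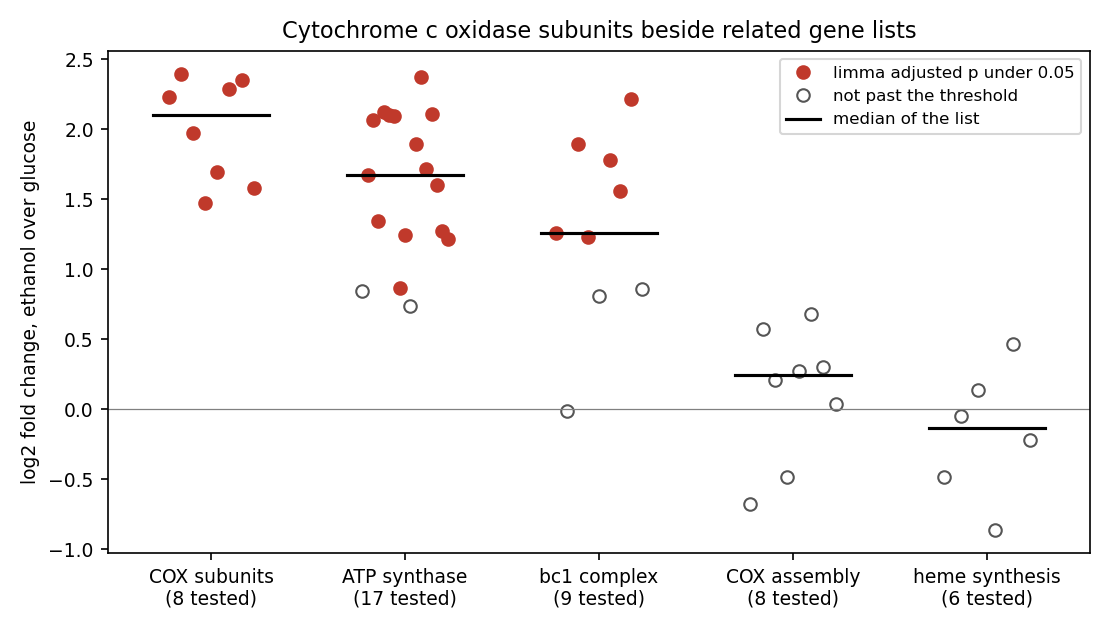
Log2 fold change, ethanol over glucose, of each tested gene of the cytochrome c oxidase subunits and 4 related lists; filled points passed the limma threshold, open points did not, and bars are list medians. All 8 subunit genes, 15 of 17 ATP synthase genes and 6 of 9 bc1 genes are filled, and no assembly or heme synthesis gene is.

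The genes known to control the subunits by carbon source and oxygen were near the limit of detection. HAP4, the glucose-repressed subunit of the Hap activator, gave 1, 3 and 18 reads from ethanol against 19, 18 and 13 from glucose. Its means were 188 ± 86.5 and 154 ± 31.8 ppm (SD, n = 3), a log2 change of 0.15 ± 0.31 (SE, limma adjusted p = 0.734). HAP1, the heme-responsive activator, had -0.26 ± 0.28 (SE, limma adjusted p = 0.472). ROX1, the heme-induced repressor of hypoxic genes such as COX5B, gave 0, 0 and 1 reads from ethanol against 11, 9 and 9 from glucose and did not pass the filter. Since 3 reads were worth 362 and 157 ppm in ethanol replicates 1 and 2, its glucose level of 83.9 to 92.3 ppm was below what those libraries could show. In ethanol replicate 3, where 3 reads were worth 47.6 ppm, the single read was 15.9 ppm. Without the filter ROX1 was called lower, at -0.85 (limma adjusted p = 0.0289), a call that rests on these few ethanol reads. In that fit 414 of 5604 features were called lower and 243 higher. Of 10 listed control genes, 2 passed the filter, HAP4 and HAP1.

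Other genes that exist as oxygen-regulated pairs, like COX5A and COX5B, were mostly represented by their aerobic member. CYC1, aerobic cytochrome c, had 241, 367 and 1395 ppm in ethanol and 272, 308 and 224 in glucose, with overlapping groups. Its log2 change was 0.76 by limma (adjusted p = 0.247) and 1.53 by voom (adjusted p = 0.0199). CYC7, its hypoxic counterpart, gave 0, 1 and 0 reads from ethanol against 4, 2 and 3 from glucose. Of the hypoxic genes ANB1 and AAC3, each had 1 read in glucose replicate 1 and none in the other 5 libraries, while their aerobic counterparts HYP2 and PET9 had 1407 ± 766 and 1607 ± 1678 ppm in ethanol and 1409 ± 104 and 1199 ± 191 in glucose (SD, n = 3). AAC1, a further ADP/ATP carrier gene with 2, 7 and 10 reads from ethanol and 5, 1 and 2 from glucose, was called higher at 1.49 ± 0.33 (SE, limma adjusted p = 0.00862). Its glucose mean was 23.4 ppm, so it passed the filter through its ethanol mean of 256 ppm, and without ethanol replicate 2 it fell under the filter and was not tested. HMG1, for the aerobic HMG-CoA reductase, was called lower at -1.79 ± 0.43 (SE, limma adjusted p = 0.0113), a call not made without glucose replicate 3, with no filter or with a pseudocount of 10 ppm. HMG2 was at -0.40 ± 0.33 by limma (SE, adjusted p = 0.359) and was called lower by voom, at -1.23 (adjusted p = 0.0488). Reads can be shared between such close pairs, and the level of each is uncertain to that extent.

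The nuclear features with profiles most like the subunits' were found by the root mean square difference of log2 profiles over the 6 libraries, each centred on its own mean, among 396 other features with at least 500 ppm. Nearest to the mean of the 8 genes were HXK1, hexokinase isoenzyme 1, at 0.14, IDH1, a subunit of isocitrate dehydrogenase, at 0.16, and ATP7, an ATP synthase stalk subunit, at 0.19. HXK1 had 1449, 786 and 1236 ppm in ethanol and 206, 195 and 177 in glucose, and IDH1 845, 733 and 1252 and 206, 185 and 196. Nearest to COX5A were MIR1, the phosphate carrier, at 0.34, KGD1, a subunit of 2-oxoglutarate dehydrogenase, at 0.34, and MIC17, a protein of the intermembrane space, at 0.35. Like COX5A, each was lowest among the ethanol libraries in replicate 2 and highest in replicate 3. As each was chosen by its likeness to COX5A, this order is no separate result.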

How the data were processed

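RNA from 3 ethanol and 3 glucose cultures was analysed, grouped by the labels' titles. The authors deposited CPM per feature of a CEN.PK113-7D assembly, in a table for each carbon source, per the file headers; STAR 2.5.4a, SAMtools, featureCounts and edgeR are named, without role, in the submitters' processing notes. Filters and treatment of split reads are not given in the sources used here. CPM steps gave the value of 1 read and so the depths; 89.1% to 94.9% of nonzero values were whole reads within 0.01 read, too few for a count test.

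Features listed under 2 classes were used once. Shares of nuclear mRNA CPM without ENO2, as log2(share + 100), were tested with limma 3.58.1 in R 4.3.3 (intensity trend, Benjamini-Hochberg over 2008 features). Before that, the model was tested on reads simulated from the mean glucose profile at the real depths. It recovered 39.2% of 4-fold and 90.1% of 8-fold changes there, and 6.31% of its calls were false. A gene not called may thus have changed. The simulated spread was set the same for all features and both groups, and no trend with feature length was put in. The 6.31% therefore cannot be read as the false share of the real calls. Wilson intervals (95%) and the floor of 3 reads cover counting error only. Alternatives were other pseudocounts, filters and totals, voom, removal of a lowess trend with feature length, a replicate block and leaving out each library. Exact permutation tests used scipy 1.17.1. The members and lists were chosen with earlier results of these data known. Named were all members, COX1 to COX3, the extremes of each list past the threshold, control and paired genes, and the nearest profiles; further genes were named after their values were seen. Of 36 assembly genes 32 matched a row, 2 of them (RCF1 as AIM31, RCF2 as AIM38) through RefSeq synonyms. Sequences were not used here, as the reference is of another strain.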

Additional observations from a re-analysis of the deposited data

How the results depend on the processing

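Of the 8 subunit genes, 7 kept a positive log2 fold change under all alternatives run, and COX9 changed sign, at -0.0056, when the trend with feature length was removed. The number of subunit genes called was 7 or 8 with other pseudocounts, no filter, median centring, no intensity trend, voom, or a total without the 10 most abundant features. It was 4 with a filter at 500 ppm, where 4 were tested. These had glucose means of 117.5 to 217 ppm and so passed that filter only through their ethanol values. The count was 1 with ENO2 in the total, 0 on the deposited CPM, 5 with the length trend removed and 5 within features of up to 500 bases. It was 6 to 8 when single libraries were left out. COX5A passed in 5 of 18 alternatives and missed the threshold in 13. The count over all features, 705 of 2008 tested, became 273 of 400 with the higher filter (113 higher, 160 lower) and 222 of 1664 on the deposited CPM (35 higher, 187 lower). It was 758 of 913 with ENO2 (44 higher, 714 lower) and 657 of 5604 without a filter (243 higher, 414 lower). Within the short features it was 75 of 456 (38 higher, 37 lower). With 2008 tested, it was 748 after median centring (291 higher, 457 lower) and 663 with the length trend removed (263 higher, 400 lower). Leaving out single libraries gave 314 to 1046, where 1983 to 2033 features were tested. It was 314 without glucose replicate 3, 321 without glucose replicate 2 and 377 without glucose replicate 1. For lost calls with no value given beside them, the cause was not tested. Whether the replicate numbers pair the cultures is not known. Deviations of same-numbered libraries correlated at 0.0012, -0.030 and 0.049, which cannot exclude a pairing at the low depth of the ethanol libraries. The fit with the replicate block called 735 features and all 8 subunit genes. With the replicate number as a block the COX1, COX2 and COX3 share differences had an exact sign permutation p of 0.25, the smallest possible. The mean log2 ratio of nuclear to mitochondrial subunit CPM was 2.74 higher in ethanol. The difference was between 1.96 and 4.06 without single libraries (4.06 without ethanol replicate 1) and 0.81 against COX2 and COX3 only. Per kilobase of feature length, where the COX1 length includes its introns, it was 1.76. The ATP synthase and bc1 counts, 15 of 17 and 6 of 9 tested, were 11 of 17 and 3 of 9 with no filter. They were 5 of 10 and 1 of 4 within the short features, and 6 of 8 and 5 of 5 with the higher filter. Of those called with the higher filter, only ATP2 had a glucose mean above 500 ppm, at 1840. With ENO2 in the total, where 14 and 9 were tested, only ATP5 was higher, and CYT1 of bc1 lower. Of the heme list, HEM3 was called lower with no filter and COX15, also an assembly gene, with ENO2 in the total. HEM3 had 0 ethanol reads and 65.2 to 71.8 ppm in glucose, less than 3 reads were worth in ethanol replicates 1 and 2. The COX5B share of subunit 5 could not be computed under any setting, as COX5B had no row.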
